A study of Mus musculus with 57 samples.

Results

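Kidneys from NZM2410 mice with nephritis were compared with kidneys from NZM2410 mice before nephritis, over every gene of the deposited NZM2410 table. The table held 16475 genes on 10 arrays, 5 from nephritic and 5 from prenephritic mice, of 57 arrays in the whole series. NZM2410 is an inbred strain bred from a New Zealand Black by New Zealand White cross that develops lupus without any engineered allele or treatment. RNA came from whole kidney and was hybridized as biotin-labelled cRNA to Affymetrix arrays. The labels call the prenephritic mice young and the nephritic mice sick and give no age in weeks, so age and disease stage differ together here. All prenephritic titles share a common stem that no nephritic title has, so whatever that stem stands for cannot be told apart from disease stage. The labels do not say that each array is a separate animal, and p-values therefore measure the spread between these arrays, which may be partly technical. The other arrays came from NZB/W mice at 16, 23 and 36 weeks and from nephritic and prenephritic NZW/BXSB mice, 6 arrays in each of the latter groups.

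Lupus nephritis is an inflammation of the kidney set off by antibodies that form immune complexes in the glomerulus, the filtering tuft of capillaries. Immune complexes engage complement and the Fc receptors of macrophages, and interferons and chemokines draw in further leukocytes. Downstream of the glomerulus the proximal tubule reclaims phosphate, glucose, amino acids and filtered protein with a high mitochondrial energy supply, and an injured tubule cell turns on injury genes such as Havcr1 and Lcn2 while its transport programme declines. In a whole kidney, fewer cells of a type and less RNA per cell of that type cannot be told apart.

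Nephritic replicate 4 stood apart from the other nephritic arrays, and the results are given with and without it where they rest on it. Its correlation with the prenephritic arrays over all genes was 0.989 to 0.992, whereas its correlation with the other nephritic arrays was 0.981 to 0.988. On the first principal component, which held 62.0% of the variance, replicate 4 scored -1.55, the other nephritic arrays scored 27.7 to 36.6 and the prenephritic arrays scored -26.1 to -24.3. Over the 5017 genes called without it, its values moved in the called direction for 86.9%, and its median shift was 0.189 on the log2 scale against 0.466 for the mean of the other nephritic arrays. These genes were called against the same prenephritic arrays from which its shift is measured, so the shares describe the array and test nothing. Replicate 4 remained in all tests as labelled.

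**Figure D1:**
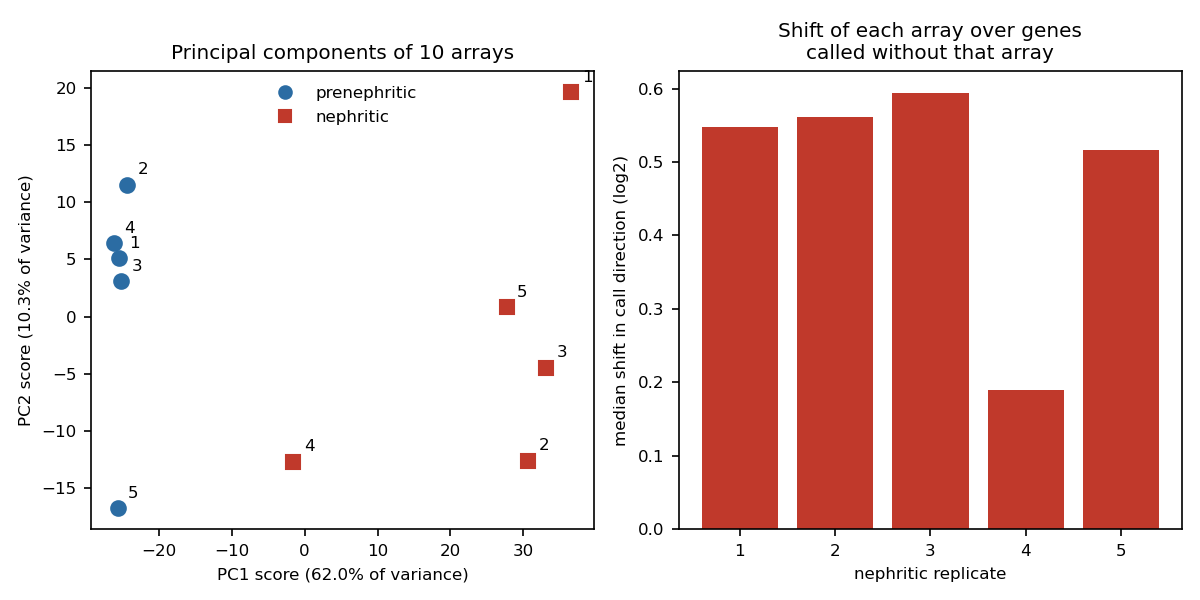
Left, scores of the 10 NZM2410 arrays on the first and second principal components (axes give the share of variance), with circles for prenephritic and squares for nephritic arrays and the replicate number beside each. Right, for each nephritic array, the bar is its median shift from the prenephritic mean (log2) in the called direction over genes called without that array; replicate 4 has the shortest bar, at 0.189.

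RNA of other tissues also differed between arrays within both groups. Adrenal cortex genes were high on prenephritic replicate 2 and nephritic replicate 5: the steroidogenic enzyme Hsd3b1 stood at 5.69, 11.87, 5.75, 6.44 and 6.09 on the prenephritic arrays and 5.61, 5.99, 5.98, 6.05 and 10.42 on the nephritic arrays. Fat genes were low on prenephritic replicate 3 and nephritic replicates 2 and 3: the adipocyte hormone Adipoq stood at 9.56, 9.98, 4.90, 9.85 and 8.54 on the prenephritic arrays and 10.02, 3.92, 3.64, 8.46 and 9.20 on the nephritic arrays. None of the 8 adrenal and none of the 7 adipocyte genes passed the test, and the medians over these lists were -0.30 and -0.89. By array, the median of the adrenal list against the prenephritic means ran from -1.01 to 3.43 in prenephritic and from -1.21 to 2.14 in nephritic kidneys, and that of the adipocyte list from -1.47 to 0.80 and from -1.92 to -0.03. Kidney genes marked every array: levels ran over 13.75 to 13.91 and 13.91 to 14.14 for Umod of the thick ascending limb and 13.55 to 13.63 and 11.48 to 13.33 for Slc34a1 of the proximal tubule, in a table running from 2.84 to 14.8. Of 6 two-sided exact permutation tests of array-wide measures, none passed after adjustment over the 6 (the smallest p that 5 against 5 arrays can give is 0.00794). The array median level, 7.17 in nephritic and 7.14 in prenephritic kidneys, had the lowest p (exact p = 0.0397, adjusted p = 0.238). The 4 tests of control probe sets had adjusted p of 0.460 or more, including the Gapdh 3' minus 5' signal, a gauge of RNA integrity, at -0.104 ± 0.0873 (SD, n = 5) in nephritic and -0.159 ± 0.0357 in prenephritic kidneys.

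Values below are log2 levels from robust multi-array averaging, listed in the order of replicates 1 to 5. A change is nephritic minus prenephritic on the log2 scale, given with its standard error from limma and 5 arrays in each group. A gene is said to have risen or fallen when its Benjamini-Hochberg adjusted p over all 16475 genes was under 0.05. Robust multi-array averaging compresses differences of dim genes, saturation may compress those of genes near the top of the scale, and a level is set only against the same gene in another array. Each of the 10 NZM2410 arrays was also left out in turn, and where a call named below was lost in some of these 10 fits, their number is given. Of 450 called genes on the lists or named by rule, 64 lost their call without at least 1 array.

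By this rule 1884 genes rose and 2277 fell, which were 11.4% and 13.8% of the genes tested. The median change over all genes was -0.01, and the median standard error was 0.0918. At 2-fold or more, 316 genes rose and 169 fell, and at 4-fold or more 60 rose and 18 fell, so the large changes were mostly rises although falls were more numerous. Without replicate 4, 2391 genes rose (14.5%) and 2626 fell (15.9%), and 4065 of the 4161 genes called with it kept their call and direction. All 5 nephritic arrays lay above all 5 prenephritic arrays for 1286 genes (7.81%) and below them for 1643 genes (9.97%). With replicate 4 included, nephritic arrays spread more: 62.1% of genes had a larger SD among them than among the prenephritic arrays. The share without replicate 4 was not computed.

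**Figure D2:**
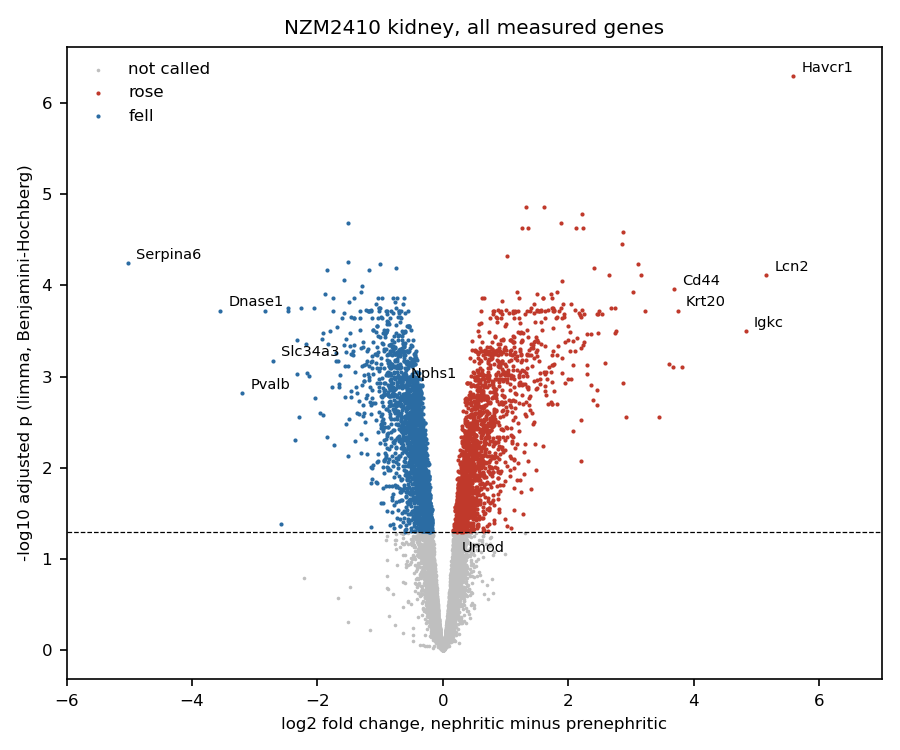
Each point is a gene; the horizontal axis is the log2 fold change, nephritic minus prenephritic, and the vertical axis is the -log10 adjusted p from limma, with a dashed line at 0.05. The 1884 genes that rose and the 2277 that fell are coloured; Havcr1 and Lcn2 lie farthest to the right and Serpina6 farthest to the left.

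Injury genes of the tubule rose together and held the largest rise in the table. Havcr1 (gene ID 171283), which encodes kidney injury molecule 1, a receptor that injured proximal tubule cells use to take up dead cells, was 6.61, 6.52, 6.80, 6.85 and 6.85 on the prenephritic arrays and 12.82, 12.18, 13.06, 11.46 and 12.02 on the nephritic arrays. The groups were far apart, with replicate 4 the lowest nephritic array. Havcr1 rose by 5.58 ± 0.25, which is 47.9-fold (adjusted p = 5.05e-07). Lcn2 (gene ID 16819), the iron-siderophore carrier lipocalin 2 and a urinary marker of tubular damage, was 6.63, 6.90, 7.13, 6.64 and 7.02 on the prenephritic arrays and 13.09, 12.13, 12.48, 9.89 and 12.52 on the nephritic arrays. It rose 35.7-fold, by 5.16 ± 0.46 (adjusted p = 7.72e-05), with replicate 4 well under the next nephritic array. All 25 measured genes of the tubular injury list rose, against a background of 11.4%, with a median change of 1.53, or 1.65 without replicate 4. Per array the median shift over the list ran from 0.81 on replicate 4 to 1.98, and prenephritic arrays lay between -0.04 and 0.02. This list and the others were written with earlier results of these data known, so their counts describe the members and test nothing.

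Epithelial and adhesion genes made up much of the rest of the list. Krt20, a keratin of simple epithelia, was 5.43, 5.01, 4.89, 5.35 and 5.48 on the prenephritic arrays and 10.69, 8.55, 9.31, 7.86 and 8.46 on the nephritic arrays. It rose 13.4-fold (3.74 ± 0.41, adjusted p = 0.000189), and no nephritic array overlapped the prenephritic ones. Cd44, the hyaluronan receptor that appears on injured tubule cells and activated leukocytes, rose 12.9-fold, from 5.45 ± 0.26 (SD, n = 5) to 9.14 ± 0.90. Vcam1, an adhesion molecule for leukocytes that injured tubules also express, rose by 3.22 ± 0.36 (adjusted p = 0.000189), from 7.22 ± 0.20 (SD, n = 5) to 10.44 ± 0.94. Both genes were lowest on replicates 4 and 5 among nephritic kidneys. The keratins Krt8, Krt18, Krt19 and Krt7 of distal nephron and injured tubule rose by 1.13 ± 0.27, 1.30 ± 0.25, 1.13 ± 0.34 and 0.76 ± 0.18, and on replicate 4 their levels of 9.89, 9.15, 6.81 and 9.31 lay close to or below the prenephritic means of 9.92 ± 0.04, 8.96 ± 0.14, 7.01 ± 0.11 and 9.36 ± 0.07 (SD, n = 5). The Krt19 call was lost in 6 of the 10 fits (highest adjusted p = 0.0639 without nephritic replicate 3). Cldn4, a tight junction claudin, rose by 2.0 ± 0.26, the stress cytokine Gdf15 by 2.08 ± 0.31, and Tnfrsf12a, the receptor of the cytokine TWEAK, by 2.29 ± 0.29. Spp1, the secreted phosphoprotein osteopontin, rose by 0.65 ± 0.07, and its nephritic arrays (14.41 to 14.68) lay above all prenephritic ones (13.87 to 13.99). Its levels were near the highest in the table, 14.8, where the array may saturate, so the size of its rise may be limited by the scale.

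Some of the largest rises stood outside these lists. Aoc1, an amine oxidase that breaks down histamine and polyamines, rose 8.94-fold (3.16 ± 0.28, adjusted p = 7.68e-05), from 7.49 to 7.73 on the prenephritic to 9.92 to 11.44 on the nephritic arrays. Pcdh8, a protocadherin, went from 3.88 ± 0.16 (SD, n = 5) to 6.57 ± 0.76 and rose by 2.69 ± 0.29. BC023105, which has no described role used here, rose 12.8-fold, with levels of 5.18, 6.05, 4.40, 4.18 and 3.78 on the prenephritic arrays and 9.54, 9.26, 9.04, 6.89 and 7.25 on the nephritic arrays. Its prenephritic arrays spread widely, and the groups did not overlap. The genes with the smallest adjusted p among the rises also included Osmr, the oncostatin M receptor (1.61 ± 0.10, adjusted p = 1.4e-05), Bcl3, a nuclear partner of NF-kB subunits (1.33 ± 0.09, adjusted p = 1.4e-05), and Cxcl2, a chemokine for neutrophils (2.22 ± 0.15, adjusted p = 1.67e-05).

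Fibrinogen chains rose while the serum amyloid genes of the same acute phase list did not pass. Fgg, the gamma chain of fibrinogen, was 7.94, 7.75, 7.78, 8.14 and 7.57 on the prenephritic arrays and 11.31, 9.60, 10.75, 10.30 and 9.61 on the nephritic arrays and rose 5.57-fold (2.48 ± 0.29, adjusted p = 0.000207). Fga and Fgb, the alpha and beta chains, rose by 1.99 ± 0.32 and 2.04 ± 0.33, and replicate 1 was the highest array for all 3 chains. Cp, the copper-carrying ferroxidase ceruloplasmin, rose 8.16-fold, from 7.94 ± 0.15 (SD, n = 5) to 10.97 ± 0.77. The protease inhibitor Serpina3n rose by 2.04 ± 0.21 and the leucine-rich glycoprotein Lrg1 by 1.90 ± 0.30. The changes of Saa1, Saa2 and Saa3, of which Saa1 and Saa2 are near-identical copies and uncertain, were -0.10, -0.12 and 0.17. The list counted 7 rises and 1 fall among 14 genes, with a median of 0.30. The fall was that of Orm1, the serum protein orosomucoid, at -1.15 ± 0.38 (adjusted p = 0.0443), with the prenephritic array low in fat genes, replicate 3 at 4.41, below every nephritic array. This call was lost in 8 of the 10 fits (highest adjusted p = 0.102 without prenephritic replicate 4).

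Complement genes of the early classical pathway and C3 were higher in nephritic kidneys. C1qa, C1qb and C1qc encode the chains of C1q, which binds antibody in immune complexes and is made largely by macrophages. C1qa was 8.03, 8.47, 8.03, 7.95 and 8.05 on the prenephritic arrays and 9.23, 10.34, 10.28, 9.58 and 9.91 on the nephritic arrays and rose 3.40-fold. C1qb rose by 1.91 ± 0.22 (adjusted p = 0.000227) and C1qc by 1.76 ± 0.19 (adjusted p = 0.000189). Replicates 2 and 3 were the highest arrays for all 3 chains, and no nephritic array overlapped the prenephritic ones. Together with C2 (1.46 ± 0.32), C1s1 (0.83 ± 0.19) and C1ra (0.79 ± 0.21), 6 of 7 measured classical pathway genes rose, with a median of 1.46. The remaining member, the C1 inhibitor Serping1, stood at a change of 0.33 ± 0.23 (adjusted p = 0.352) and did not pass.

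C3, the central component on which all complement pathways converge, was 9.35, 10.62, 8.50, 9.08 and 8.73 on the prenephritic arrays and 13.46, 12.45, 12.36, 10.90 and 11.46 on the nephritic arrays. It rose 7.31-fold (2.87 ± 0.47, adjusted p = 0.00119), and prenephritic replicate 2 at 10.62 came near nephritic replicate 4. Cfi, a protease that inactivates C3b, rose by 1.88 ± 0.13 (adjusted p = 2.08e-05), C3ar1, a receptor for the fragment C3a, by 1.33 ± 0.21, and Itgb2, the common chain of leukocyte integrins including complement receptor 3, by 1.12 ± 0.22. Factor B (Cfb) and properdin (Cfp) of the alternative pathway rose by 0.63 ± 0.10 and 0.59 ± 0.17. The membrane regulators Cd55 and Cd59a, which protect cells from complement, fell (changes of -0.78 and -0.25), and Cd55 had no overlap between groups (5.59 to 6.35 before and 4.79 to 5.42 in nephritis). The Cfp call was lost in 3 of the 10 fits (highest adjusted p = 0.0534 without prenephritic replicate 2) and that of Cd59a in 5 of the 10 fits (highest adjusted p = 0.0857 without prenephritic replicate 1). In all, 8 of 17 genes of the alternative and effector list rose (47.1%, against 11.4% of all genes). The 2 falls (11.8%) were near the 13.8% of all genes.

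Genes that present antigen on MHC class II had the highest median of all 46 lists, 2.04, with 9 of 12 members risen and 1 fallen. H2-Ab1, a class II beta chain, was 8.68, 9.06, 8.77, 8.40 and 8.45 on the prenephritic arrays and 11.75, 11.84, 11.55, 10.09 and 10.82 on the nephritic arrays. It rose 5.82-fold (2.54 ± 0.29, adjusted p = 0.000207), with replicate 4 lowest and no overlap. Cd74, the invariant chain that chaperones class II, rose 5.48-fold, from 10.12 ± 0.17 (SD, n = 5) to 12.58 ± 0.74. Peptide loading genes H2-DMb2, H2-DMb1 and H2-DMa rose by 2.58 ± 0.38, 2.23 ± 0.30 and 1.63 ± 0.18, and Ctss, the cathepsin that trims the invariant chain in antigen-presenting cells, by 2.17 ± 0.25. Ciita, the coactivator that switches on class II genes, rose by 0.60 ± 0.12 (adjusted p = 0.00388). Ctsh, a lysosomal cathepsin, fell by 0.25, a call lost in 7 of the 10 fits (highest adjusted p = 0.0846 without nephritic replicate 5). H2 genes resemble each other closely, so which of them an H2 probe set measured is uncertain.

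All 12 class I genes rose, with a median of 1.20. H2-K1, a class I heavy chain, was 9.96, 10.25, 9.80, 9.72 and 9.73 on the prenephritic arrays and 12.99, 12.83, 12.54, 11.16 and 11.72 on the nephritic arrays and rose 5.12-fold. B2m, the light chain common to class I molecules, rose by 1.33 ± 0.17 (adjusted p = 0.000312). The immunoproteasome subunits Psmb8, Psmb9 and Psmb10, which cut peptides for class I, rose by 1.95 ± 0.32, 1.19 ± 0.28 and 1.24 ± 0.18, and the peptide transporters Tap1 and Tap2 by 1.08 ± 0.27 and 1.21 ± 0.20. Replicates 4 and 5 were the lowest nephritic arrays for each of H2-K1, B2m and Psmb8.

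Interferon response genes rose in most members: 21 of 26 rose and none fell, with a median of 0.82 and 0.92 without replicate 4. Ifit1, an RNA-binding antiviral protein, was 6.66, 6.93, 6.74, 6.60 and 6.43 on the prenephritic arrays and 9.27, 8.68, 8.67, 7.82 and 7.56 on the nephritic arrays. It rose 3.31-fold (1.73 ± 0.27, adjusted p = 0.000899), highest on replicate 1 and lowest on replicates 4 and 5. Oasl2 and Oasl1, relatives of the oligoadenylate synthetases, rose by 1.82 ± 0.33 and 1.54 ± 0.23, and Irf7, the transcription factor that amplifies type I interferon, by 1.37 ± 0.25 (adjusted p = 0.00206). The 5 members that did not pass were Rsad2, Cmpk2, Oas3, Mx2 and Ifi44, with changes from -0.02 to 0.34. Among genes that interferon gamma induces, 11 of 14 rose, with a median of 1.03. Gbp2, a guanylate-binding protein of cell-autonomous defence, was 7.38, 7.88, 7.36, 7.38 and 6.89 on the prenephritic arrays and 10.53, 10.20, 10.14, 8.60 and 8.88 on the nephritic arrays and rose 4.91-fold (2.29 ± 0.35, adjusted p = 0.000743). Ubd, a ubiquitin-like modifier that inflammatory cytokines induce, rose 10.9-fold, with nephritic levels of 10.99, 9.86, 9.18, 7.37 and 6.55 against 5.24 to 5.51 before. The nephritic arrays fell in a wide range, all above the prenephritic ones.

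The promoters of a few of these genes are shown because interferon-responsive genes are read through a known sequence element. The interferon-stimulated response element was searched on both strands as GAAA and GAAA with any 2 bases between them, in windows of 300 bases, from 250 bases before to 50 after each gene's start, taken from RefSeq on GRCm38.p6. Capitals mark each match. Ifit1, at chr19:34640639-34640938 on the plus strand, held 2 matches between positions -104 and -76, Gbp2, at chr3:142620413-142620712 on the plus strand, held 1 from -59 to -50, and Cxcl10, at chr5:92348840-92349139 on the minus strand, held 1 from -213 to -204. Cxcl1, at chr5:90890995-90891294 on the plus strand, is shown with a match to the NF-kB site, searched on both strands as GGGA and TTTCC with any base between them, from -71 to -62.
Ifit1: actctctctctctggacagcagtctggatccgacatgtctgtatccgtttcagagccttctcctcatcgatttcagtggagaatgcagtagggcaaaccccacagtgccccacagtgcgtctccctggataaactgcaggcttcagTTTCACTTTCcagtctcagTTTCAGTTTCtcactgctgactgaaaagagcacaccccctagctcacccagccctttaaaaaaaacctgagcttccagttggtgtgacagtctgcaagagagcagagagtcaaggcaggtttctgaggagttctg
Gbp2: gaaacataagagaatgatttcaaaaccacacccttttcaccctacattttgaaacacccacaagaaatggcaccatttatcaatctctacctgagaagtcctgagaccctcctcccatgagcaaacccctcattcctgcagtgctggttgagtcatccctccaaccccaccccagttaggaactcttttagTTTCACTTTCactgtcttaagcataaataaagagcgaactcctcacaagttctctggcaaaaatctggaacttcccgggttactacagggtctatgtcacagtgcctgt
Cxcl10: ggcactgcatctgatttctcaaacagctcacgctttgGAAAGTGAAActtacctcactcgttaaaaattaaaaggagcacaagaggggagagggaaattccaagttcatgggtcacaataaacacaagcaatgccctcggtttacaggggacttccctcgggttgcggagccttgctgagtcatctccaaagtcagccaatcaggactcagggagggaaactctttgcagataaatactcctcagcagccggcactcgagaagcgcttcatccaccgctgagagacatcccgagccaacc
Cxcl1: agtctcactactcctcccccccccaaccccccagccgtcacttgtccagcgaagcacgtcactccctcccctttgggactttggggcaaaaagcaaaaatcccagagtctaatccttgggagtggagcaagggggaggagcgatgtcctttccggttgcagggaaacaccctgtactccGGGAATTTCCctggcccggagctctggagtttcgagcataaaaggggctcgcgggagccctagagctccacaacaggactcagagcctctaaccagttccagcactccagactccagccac
The interferon element matched in 453 of 12800 measured genes with a promoter window (3.54%), in 8 of 18 such interferon response genes (44.4%), in 6 of 11 interferon gamma genes (54.5%) and in 3 of 11 class I genes (27.3%). A gene with several windows counted as matched if any of them held the letters, for this and the other elements below. Of interferon response genes, 6 of 8 with a match rose, as did 8 of 10 without one. Over all genes 80 of 453 with a match rose and 1356 of 12347 without one. Rsad2 and Oas3 were the members with a match that did not pass. A match describes these letters in this window and is not a binding site, and the absence of a match says nothing about a factor.

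Chemokines, the secreted proteins that direct leukocyte movement, rose in 16 of 23 ligands and 6 of 17 receptors. Cxcl10, which draws T cells and is induced by interferons, was 7.08, 7.11, 6.65, 6.81 and 6.44 on the prenephritic arrays and 8.94, 9.16, 9.27, 8.80 and 8.54 on the nephritic arrays. It rose 4.36-fold (2.13 ± 0.16, adjusted p = 2.34e-05), and its value on replicate 4 was close to those of the other nephritic arrays. Cxcl1, a neutrophil chemokine, was 6.05, 6.04, 6.18, 6.44 and 6.63 on the prenephritic arrays and 8.82, 8.33, 9.07, 8.01 and 9.14 on the nephritic arrays, a rise of 2.41 ± 0.21. Ccl5, which attracts T cells and monocytes, had the largest rise of the list at 2.92 ± 0.56, with nephritic levels of 10.81, 10.03, 9.94, 8.73 and 6.88, so that replicate 5 stood only a little above the prenephritic range of 6.27 to 6.49. The monocyte chemokines Ccl2, Ccl7, Ccl8 and Ccl12 rose by 1.44 ± 0.19, 0.84 ± 0.14, 1.24 ± 0.34 and 1.58 ± 0.20. Cxcl13, the B cell chemokine, rose by 0.76 ± 0.20 (adjusted p = 0.0162). Values that did not pass were -0.64 ± 0.22 for Cxcl12, which retains stem and immune cells, and 0.61 ± 0.24 for Cxcl9, a T cell chemokine induced by interferon gamma (adjusted p = 0.0474 without replicate 4).

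Among receptors, Ccr2, which monocytes use to leave the blood, rose by 1.67 ± 0.30 (adjusted p = 0.00198), and Cx3cr1, the fractalkine receptor of resident and patrolling phagocytes, by 1.14 ± 0.13 (adjusted p = 0.000229). Cxcr6, a receptor of tissue T cells, rose by 0.99 ± 0.31 (adjusted p = 0.036), with replicate 2 at the top of 5.60, 7.34, 6.19, 5.74 and 5.14 and replicate 5 inside the prenephritic range. The call was lost in 6 of the 10 fits (highest adjusted p = 0.0806 without nephritic replicate 3). Cxcr2, the neutrophil receptor of Cxcl1 and Cxcl2, had a change of -0.44 ± 0.19 (adjusted p = 0.117) and did not pass.

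Targets and regulators of NF-kB, the transcription factor that carries inflammatory signals, counted 18 rises and 1 fall among 25 genes (median 0.79). Socs3, a brake on cytokine signalling, was 6.30, 6.46, 6.06, 6.28 and 5.94 on the prenephritic arrays and 9.79, 9.25, 9.14, 8.25 and 8.88 on the nephritic arrays and rose 7.24-fold. The inhibitors of NF-kB Nfkbia, Nfkbie and Nfkbiz rose by 0.88 ± 0.17, 1.83 ± 0.25 and 1.90 ± 0.17, the subunits Relb and Nfkb2 by 1.60 ± 0.16 and 0.60 ± 0.09, and the deubiquitinase Tnfaip3 by 1.35 ± 0.19. Icam1, an adhesion ligand for leukocyte integrins, rose 3.59-fold. Csf1, the growth factor of macrophages, rose by 1.01 ± 0.12 (adjusted p = 0.000264). Of the cytokines themselves, Il6 rose by 0.48 ± 0.12 and Il1b by 0.57 ± 0.18, whereas Tnf, at 0.26 ± 0.10, did not pass. Tnfaip2 fell by 0.42. The calls of Il1b and Tnfaip2 were lost in 7 of the 10 fits (highest adjusted p = 0.0843 without prenephritic replicate 4) and 7 of the 10 fits (highest adjusted p = 0.0822 without prenephritic replicate 3). The NF-kB letters occurred in 72 of 12800 measured genes with a promoter window (0.562%). Among such genes they occurred in 2 of 16 chemokine ligands (Cxcl1 and Cxcl2). They also occurred in 5 of 21 such members of this list (Csf1, Il6, Ltb, Nfkb2 and Nfkbia). These 7 genes rose, as did 9 of 14 chemokine ligands and 9 of 16 members of this list without the letters, and over all genes 20 of 72 with the letters and 1416 of 12728 without them. The Ltb call was lost in 5 of the 10 fits (highest adjusted p = 0.0735 without prenephritic replicate 1).

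**Figure D3:**
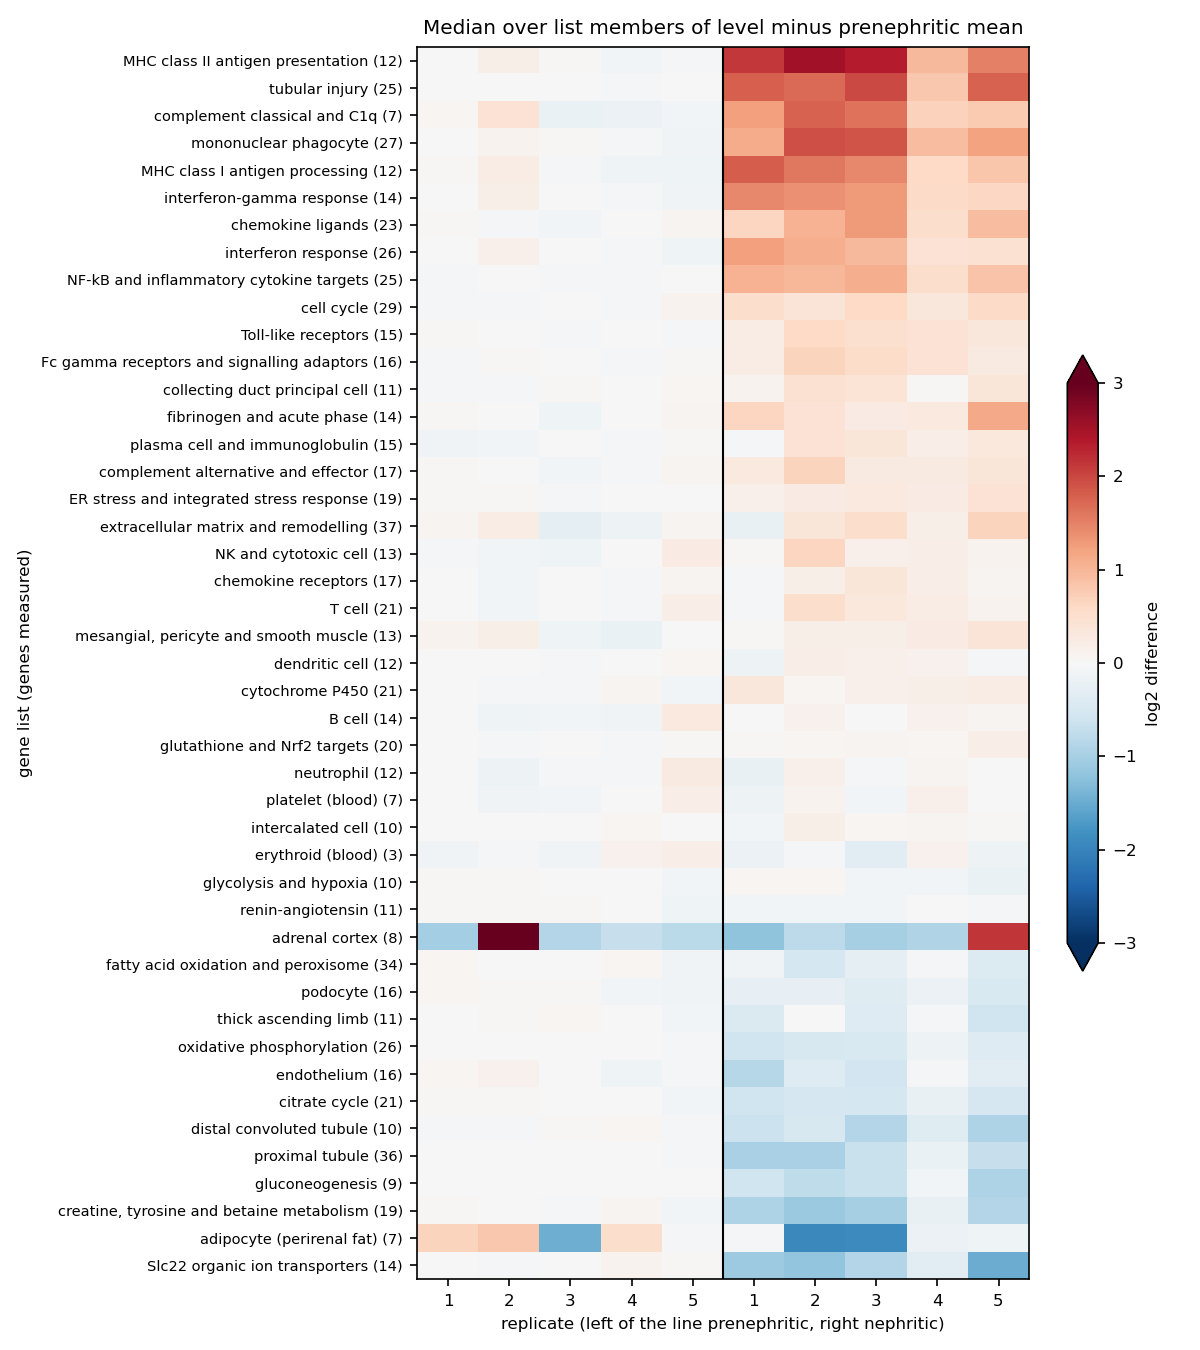
Rows are 45 gene lists (number of measured genes in brackets), ordered by median change, and columns are the 10 arrays; colour gives the median over the list of each gene's level minus its prenephritic mean (log2). Injury, class II, phagocyte and C1q lists are high on nephritic arrays and transporter and metabolic lists are low, with paler colours on nephritic replicate 4, and the adipocyte and adrenal lists vary within both groups.

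Genes of mononuclear phagocytes, the macrophages and monocytes, rose in 23 of 27 members with none fallen (median 1.46). Cd68, a lysosomal protein of macrophages, was 6.28, 6.19, 6.16, 5.83 and 5.65 on the prenephritic arrays and 8.44, 7.86, 8.65, 7.95 and 8.39 on the nephritic arrays and rose 4.71-fold (2.24 ± 0.17, adjusted p = 2.34e-05). Lyz2, the lysozyme of myeloid cells, was 8.69, 8.78, 8.37, 8.26 and 7.99 on the prenephritic arrays and 9.68, 11.23, 11.13, 9.84 and 10.71 on the nephritic arrays and rose 4.28-fold. Adgre1, which encodes the F4/80 antigen of mouse macrophages, rose by 1.72 ± 0.17 (adjusted p = 0.000126), the mannose receptor Mrc1 by 1.63 ± 0.26 and the lectin Lgals3 by 1.82 ± 0.17. Cd14, the coreceptor for bacterial lipopolysaccharide that tubule cells can also make, rose 8.68-fold (3.12 ± 0.26, adjusted p = 5.78e-05). Csf1r, the receptor of the growth factor Csf1, had a change of 0.21 ± 0.12 (adjusted p = 0.259) and did not pass, nor did Cd163, Adgre4 or Trem2, at 0.08, 0.23 and 0.35. Replicates 2 and 3 were the highest arrays for C1qa, C1qb, C1qc and Lyz2, and the phagocyte list as a whole ran from 0.93 on replicate 4 to 1.93 on replicate 2.

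Receptors for the constant part of IgG and their signalling partners counted 12 rises among 16 genes. Fcgr3, an activating receptor, was 6.87, 6.74, 6.49, 6.64 and 6.40 on the prenephritic arrays and 8.21, 8.65, 8.75, 7.67 and 8.64 on the nephritic arrays and rose 3.38-fold. Its signalling chain Fcer1g rose by 0.93 ± 0.13 (adjusted p = 0.000567) and the adaptor Tyrobp by 1.46 ± 0.19 (adjusted p = 0.000408). Fcgr1 and Fcgr4, also activating, rose by 0.79 ± 0.11 and 0.71 ± 0.15. Fcgr2b, the inhibitory receptor of this family, had a change of 0.12 ± 0.11 (adjusted p = 0.504) and did not pass. Toll-like receptors, which sense microbial products and nucleic acids, rose in 11 of 15 list members. Tlr2 for lipoproteins rose by 1.63 ± 0.19 (adjusted p = 0.000228) and Tlr13 for bacterial ribosomal RNA by 1.23 ± 0.20 (adjusted p = 0.00114). The RNA sensor Tlr7 and the transporter Unc93b1, which brings Tlr7 and Tlr9 to endosomes, rose by 0.54 ± 0.11 and 0.63 ± 0.13, and the DNA sensor Tlr9, at 0.12 ± 0.11, did not pass.

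Lymphocyte lists held fewer rises than the phagocyte list, but more of their genes were dim. The authors did not mark as expressed 8 of 21 T cell and 5 of 14 B cell genes, against 1 of 27 phagocyte genes. Differences of such genes may be compressed, and the part of this in the lower shares was not tested. Of 21 T cell genes, 4 rose: Cd3g (1.21 ± 0.25, adjusted p = 0.00391) and Cd3d (0.65 ± 0.17, adjusted p = 0.0125) of the T cell receptor complex, the kinase Lck (0.50 ± 0.12) and the surface protein Cd5 (0.49 ± 0.13). The Cd5 call was lost in 1 of the 10 fits (highest adjusted p = 0.0503 without prenephritic replicate 3). Cd3g was 4.76, 4.75, 4.70, 4.66 and 4.82 on the prenephritic arrays and 5.65, 6.89, 6.32, 5.75 and 5.16 on the nephritic arrays, highest on replicate 2. Cd4 and Cd8a, which mark helper and cytotoxic T cells, had changes of 0.13 ± 0.10 and 0.12 ± 0.11 and did not pass. The share of T cell genes risen, 4 of 21, compares with 11.4% of all genes, and 7 of 21 rose without nephritic replicate 1. Of 14 B cell genes, 3 rose, the B cell receptor chain Cd79b (0.34 ± 0.09), the coreceptor Cd72 (0.90 ± 0.18) and the linker Blnk (0.94 ± 0.15), while the defining marker Ms4a1 was at 0.04 ± 0.07 and did not pass. In one fit of all 57 arrays Cd79b and Cd72 had adjusted p = 0.5 and 0.0748, and without the arrays low in fat genes 0.147 and 0.0595. The dendritic cell list had 2 rises in 12 (Cd83 and Itgax) and the natural killer and cytotoxic list 2 in 13 (Nkg7 and Ccl5). These shares of 16.7% and 15.4% were near the 11.4% of all genes. In the 57-array fit Itgax and Nkg7 had adjusted p = 0.0868 and 0.0812. Without the arrays low in fat genes the natural killer and cytotoxic list had 0 rises. The Nkg7 call was lost in 2 of the 10 fits (highest adjusted p = 0.0626 without prenephritic replicate 1). None of 12 neutrophil genes passed; 1 of them, Cxcr2, is also the receptor described above, and the list median was -0.01.

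Antibody genes split by class. Igkc, the constant region of the kappa light chain, was 4.73, 5.79, 5.19, 4.82 and 4.29 on the prenephritic arrays and 8.76, 10.57, 10.81, 7.59 and 11.22 on the nephritic arrays. It rose 28.4-fold (4.83 ± 0.60, adjusted p = 0.000318), the third-largest rise in the table, with replicate 4 lowest and no overlap. Jchain, which joins IgA and IgM into polymers, was 4.69, 5.72, 5.10, 4.97 and 5.11 on the prenephritic arrays and 7.78, 9.97, 9.83, 6.81 and 10.24 on the nephritic arrays and rose 14.0-fold, and Igha, the IgA heavy chain, was 6.59, 7.39, 6.83, 6.99 and 6.81 on the prenephritic arrays and 9.33, 11.59, 11.11, 8.67 and 11.93 on the nephritic arrays and rose 12.2-fold. For all 3 genes replicates 2, 3 and 5 were high and replicates 1 and 4 low among nephritic arrays. Ighm, the IgM heavy chain, rose by 0.96 ± 0.18 (adjusted p = 0.00232). The IgG heavy chains did not pass: Ighg3 was 5.84, 5.98, 6.01, 5.97 and 6.51 on the prenephritic arrays and 5.82, 5.91, 5.90, 6.15 and 6.12 on the nephritic arrays, a change of -0.08 ± 0.12, and Ighg2b, Ighg1 and Ighg2c stood at 0.01 ± 0.12, 0.12 ± 0.11 and 0.04 ± 0.09. Plasma cell genes Mzb1, Derl3, Tnfrsf17 and Prdm1 stood at 0.07, -0.05, -0.15 and -0.25 and did not pass, whereas Sdc1, which plasma cells and epithelia both carry, rose by 0.97 ± 0.14. In all, 7 of 15 list members rose. Immunoglobulin genes have near-identical relatives and strain variants, so what a probe set reports in this strain is uncertain.

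**Figure D4:**
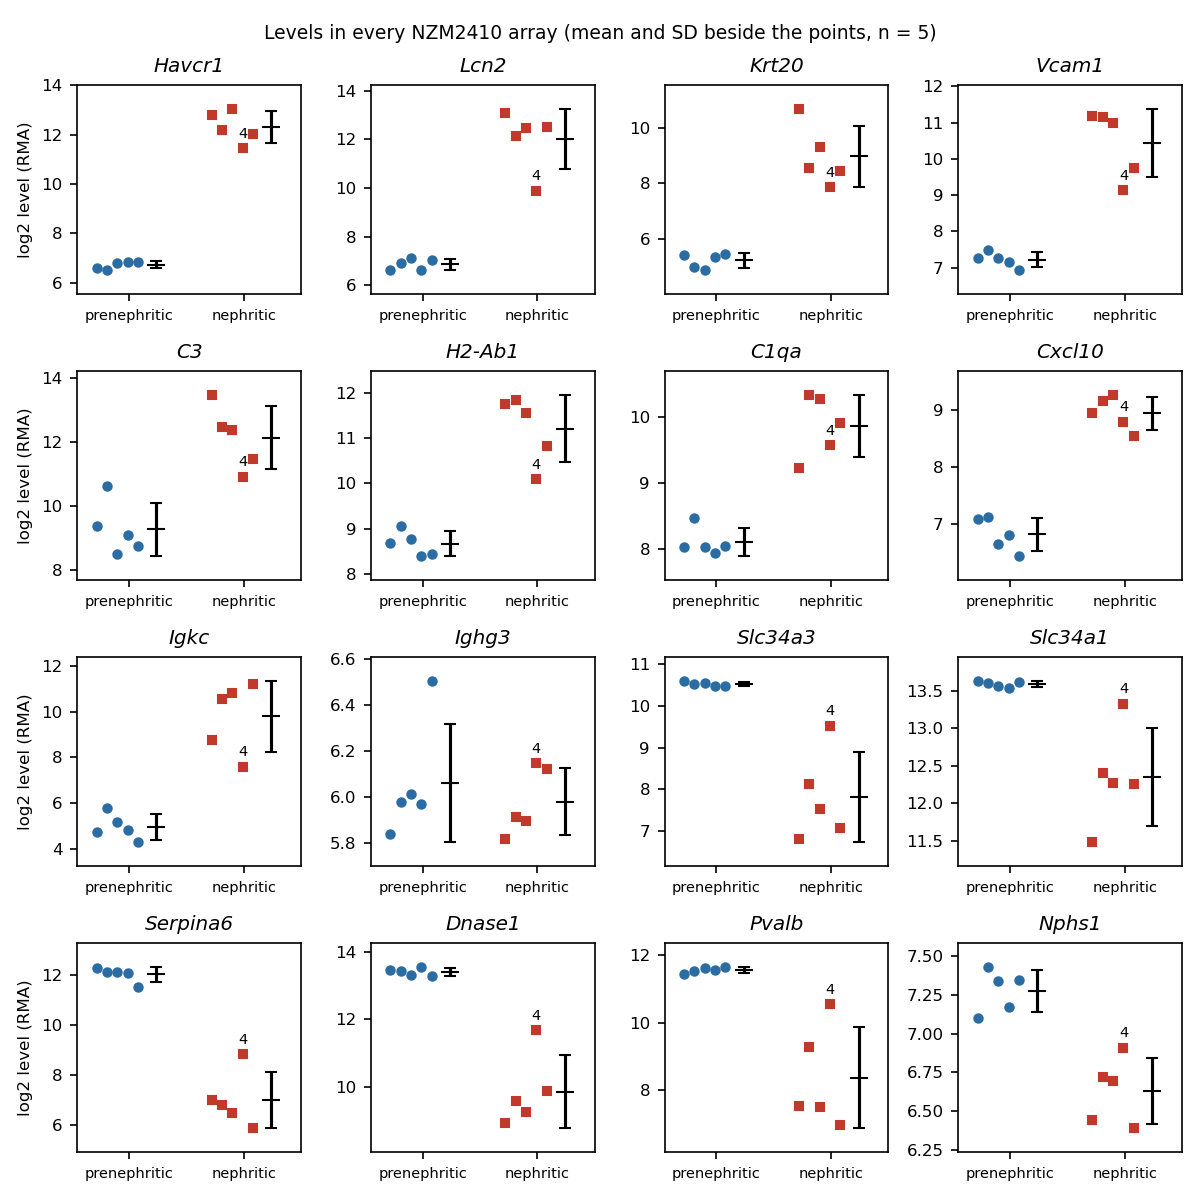
Log2 level of 16 genes on every NZM2410 array, with the mean and SD (n = 5) beside the points of each group and nephritic replicate 4 marked by its number; vertical axes differ between panels. Havcr1, Lcn2, Krt20, Vcam1, H2-Ab1, C1qa, Cxcl10 and Igkc show no overlap between groups, Ighg3 overlaps fully, and Slc34a3, Serpina6, Dnase1 and Pvalb fall, with replicate 4 nearest to the prenephritic arrays.

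Matrix and scar genes gave a mixed list: 13 of 37 rose and 2 fell, with a median of 0.25. Rises were found for genes of matrix turnover and signalling. Timp1, an inhibitor of metalloproteinases, was 5.60, 5.61, 5.18, 5.50 and 6.12 on the prenephritic arrays and 8.07, 7.43, 8.51, 7.03 and 8.24 on the nephritic arrays and rose 4.78-fold. Tgfbi, an adhesion protein induced by TGF-beta, rose by 1.50 ± 0.20 (adjusted p = 0.0004), the growth factor Ccn2 by 1.31 ± 0.29 (adjusted p = 0.00543), Tgfb1 itself by 0.70 ± 0.13 and fibronectin (Fn1) by 0.71 ± 0.16. Fibrillar collagens did not pass: Col1a1 was 8.68, 8.98, 7.93, 8.08 and 8.48 on the prenephritic arrays and 7.99, 8.79, 9.60, 8.32 and 9.50 on the nephritic arrays, a change of 0.41 ± 0.31, and Col3a1 had a change of 0.17 ± 0.31. The groups overlapped for both, and nephritic replicate 1 held the lowest nephritic value of each. Periostin (Postn), a matrix protein of scar and wound, fell by 0.69 ± 0.23 (adjusted p = 0.0433), a call lost in 7 of the 10 fits (highest adjusted p = 0.0954 without prenephritic replicate 1), replicate 4 among them (adjusted p = 0.0745). Of 13 genes of smooth muscle, pericytes and mesangium 4 rose and 1 fell: the contractile genes Tagln and Acta2 rose by 1.32 ± 0.25 and 1.09 ± 0.25, highest on replicate 5, and Itga8, an integrin of mesangial cells, fell by 0.96.

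Cell cycle genes rose in 21 of 29 members with 1 fall, Tyms (-0.30 ± 0.09), and the changes were small, with a median of 0.50. The Tyms call was lost in 5 of the 10 fits (highest adjusted p = 0.0767 without prenephritic replicate 4). Mki67, the proliferation antigen, was 7.95, 8.17, 8.13, 8.14 and 8.43 on the prenephritic arrays and 9.14, 8.70, 8.93, 8.70 and 8.92 on the nephritic arrays and rose by 0.71 ± 0.11 (adjusted p = 0.000671). Birc5 and Ccnb2, which act in mitosis, rose by 0.98 ± 0.12 and 0.84 ± 0.10, and Cdk1, the kinase that starts mitosis, by 0.71 ± 0.11. The letters CCAAT, a promoter element common in mitotic genes, occurred on either strand in 19 of 25 list members with a promoter window (76%). Over all measured genes with a window they occurred in 5404 of 12800 (42.2%). Of the list, 16 of 19 members with the letters rose, as did 3 of 6 without them. Over all genes 578 of 5404 with the letters rose and 858 of 7396 without them. The letters were also searched in 8 class II genes with a window. There 5 of 6 with them rose and 1 of 2 without them.

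The proximal tubule list fell in 29 of 36 members, against 13.8% of all genes, and 1 rose. Slc34a3, a sodium phosphate cotransporter, was 10.60, 10.52, 10.55, 10.48 and 10.47 on the prenephritic arrays and 6.80, 8.13, 7.53, 9.53 and 7.08 on the nephritic arrays. It fell 6.54-fold (-2.71 ± 0.40, adjusted p = 0.000667), and replicate 4 was the nephritic array nearest to the prenephritic ones. Slc34a1, the main phosphate cotransporter of this segment, was 13.63, 13.61, 13.56, 13.55 and 13.62 on the prenephritic arrays and 11.48, 12.40, 12.27, 13.33 and 12.26 on the nephritic arrays and fell 2.37-fold (-1.24 ± 0.25, adjusted p = 0.00315). Slc5a2, the glucose cotransporter of the early segment, fell 2.96-fold, from 11.67 ± 0.05 (SD, n = 5) to 10.10 ± 0.74, and Slc6a19, a neutral amino acid transporter, fell 2.92-fold. The endocytic receptors megalin (Lrp2) and cubilin (Cubn), which take filtered protein back up, changed by -1.02 ± 0.17 (adjusted p = 0.00142) and -0.93 ± 0.14 (adjusted p = 0.000796), and Hnf4a, a transcription factor that maintains proximal tubule identity, by -0.79 ± 0.13 (adjusted p = 0.0013). The member that rose was Slc5a1, the glucose cotransporter of the late segment, at 0.55 ± 0.15 (adjusted p = 0.0165). The list median was -0.68, or -0.81 without replicate 4, on which the list median was -0.20.

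All 14 Slc22 genes, which encode transporters of organic anions and cations, fell, with a median of -0.97. Slc22a29 was 10.69, 10.72, 10.70, 10.75 and 10.25 on the prenephritic arrays and 7.35, 8.31, 7.60, 9.84 and 8.36 on the nephritic arrays and fell 5.03-fold. Slc22a7 fell 2.58-fold and Slc22a22 3.80-fold, and Slc22a6 and Slc22a8, the principal organic anion transporters OAT1 and OAT3, changed by -0.81 ± 0.21 (adjusted p = 0.0158) and -0.86 ± 0.23 (adjusted p = 0.016). On replicate 4 Slc22a6 was 10.83 and Slc22a8 9.84, inside the prenephritic ranges of 10.73 to 10.94 and 9.79 to 9.89. Slc22a27, outside the list, fell 5.03-fold, from 7.02 ± 0.07 (SD, n = 5) to 4.68 ± 0.82. Several of these genes lie in families of close relatives, so signal may be split among them.

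Enzymes of creatine, tyrosine and betaine metabolism fell in 16 of 19 members, with a median of -0.88. Hpd, an enzyme of tyrosine breakdown, was 10.37, 10.26, 10.10, 10.69 and 9.92 on the prenephritic arrays and 7.48, 6.77, 6.94, 8.79 and 7.21 on the nephritic arrays and fell 7.11-fold. Gatm, which makes the creatine precursor guanidinoacetate, was 13.10, 13.05, 12.95, 12.91 and 12.94 on the prenephritic arrays and 9.61, 11.19, 10.99, 12.58 and 11.35 on the nephritic arrays and fell 3.60-fold. Bhmt, the betaine-homocysteine methyltransferase, fell 5.14-fold (-2.36 ± 0.51, adjusted p = 0.00495), with 8.67 on replicate 4 inside the prenephritic range.

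The largest fall in the table was that of Serpina6 (gene ID 12401), which encodes corticosteroid-binding globulin, the carrier of glucocorticoids. It was 12.28, 12.13, 12.11, 12.08 and 11.51 on the prenephritic arrays and 6.98, 6.81, 6.49, 8.82 and 5.87 on the nephritic arrays. All nephritic arrays lay far below the prenephritic ones, replicate 4 least, and the fall was 32.6-fold (-5.03 ± 0.42, adjusted p = 5.66e-05). Dnase1 (gene ID 13419), the secreted endonuclease that digests extracellular DNA, was 13.48, 13.44, 13.31, 13.55 and 13.28 on the prenephritic arrays and 8.92, 9.58, 9.24, 11.69 and 9.87 on the nephritic arrays and fell 11.7-fold (-3.55 ± 0.40, adjusted p = 0.000189). Replicate 4 lay between the prenephritic arrays and the other nephritic arrays. Further large falls were those of Ly6f (-2.48 ± 0.28), a Ly6-family surface protein, Nepn, the proteoglycan nephrocan (-2.47 ± 0.26), Clec2h, a C-type lectin-related gene (-2.30 ± 0.45), and Thrsp, a lipogenic protein of fat and liver (-2.58 ± 0.84, adjusted p = 0.0415). Thrsp was 10.20, 10.82, 6.27, 10.03 and 9.36 on the prenephritic arrays and 6.69, 5.56, 5.40, 8.95 and 7.20 on the nephritic arrays. Its groups overlapped, with the lowest prenephritic level on replicate 3, the array low in fat genes, and the part of fat content in its fall was not tested. The call was lost with trended and robust variance (adjusted p = 0.101), with the Gapdh covariate (0.0895) and in 8 of the 10 fits (highest adjusted p = 0.104 without nephritic replicate 3). Among the genes with the smallest adjusted p, Cpeb3, an RNA-binding regulator of translation, fell by 1.51, Kcne1l, a potassium channel subunit, fell by 1.52, Pdss1, which starts the ubiquinone side chain, fell by 1.0, and Cbr2, a carbonyl reductase, fell by 0.75.

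Mitochondrial genes fell by small and even amounts. Of 26 oxidative phosphorylation genes 24 fell and none rose, with a median of -0.40, and the members ranged only from -0.79 to -0.18. Ndufs1, a subunit of complex I, was 12.01, 12.03, 12.01, 11.94 and 11.84 on the prenephritic arrays and 10.80, 11.19, 11.10, 11.68 and 11.12 on the nephritic arrays and fell 1.73-fold. Sdha of complex II changed by -0.55 ± 0.10 (adjusted p = 0.00177), Uqcrc2 of complex III by -0.50 ± 0.08 and Atp5pb of the ATP synthase by -0.55 ± 0.10 (adjusted p = 0.00191). Citrate cycle and entry enzymes fell in 20 of 21 members (median -0.49), led by Pcx, the pyruvate carboxylase, at -1.11 ± 0.15 (adjusted p = 0.000417), and including Idh2 (-0.66 ± 0.09), Idh3b (-0.66 ± 0.10) and Dld (-0.62 ± 0.14). Fatty acid oxidation and peroxisome genes were mixed: 15 of 34 fell and 1 rose. Acox2, a peroxisomal oxidase of branched lipids and bile acid precursors, fell 2.91-fold, Ppargc1b, a coactivator of mitochondrial genes, changed by -0.69 ± 0.12 (adjusted p = 0.00173), and Ppara and Ppargc1a, which govern this programme, stood at -0.34 ± 0.22 and -0.32 ± 0.23 and did not pass. Of 9 gluconeogenesis genes 5 fell and 2 rose: the glucose-6-phosphate transporter Slc37a4 changed by -1.05 ± 0.14 (adjusted p = 0.000479) and Fbp1 by -0.69 ± 0.13 (adjusted p = 0.00261), whereas Fbp2, the muscle isoenzyme, rose by 0.95 ± 0.16 (adjusted p = 0.00113). Glycolysis and hypoxia genes showed 1 rise, Pfkp (0.47 ± 0.06), and 3 falls among 10. These shares of 10% and 30% compare with 11.4% and 13.8% of all genes. Vegfa, the growth factor of endothelium, fell by 0.74 and Pkm fell by 0.34 (adjusted p = 0.00123, or 0.0554 in the 57-array fit). Pfkl fell by 0.19 (adjusted p = 0.0407), a call lost under 6 further settings and in 8 of the 10 fits (highest adjusted p = 0.102 without nephritic replicate 3).

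Cytochrome P450 genes counted 8 rises and 4 falls among 21. These shares of 38.1% and 19.0% compare with 11.4% and 13.8% of all genes, so the share of falls was near that of all genes. Cyp24a1, which degrades active vitamin D, was 8.50, 8.51, 9.10, 9.24 and 9.24 on the prenephritic arrays and 11.39, 10.10, 11.90, 11.94 and 11.65 on the nephritic arrays and rose 5.57-fold. Cyp4a12a, a fatty acid hydroxylase, rose 5.52-fold, from 4.37 ± 0.33 (SD, n = 5) to 6.83 ± 1.09. Cyp4b1 was 11.01, 10.76, 10.56, 11.09 and 10.36 on the prenephritic arrays and 12.28, 11.91, 12.92, 13.09 and 12.57 on the nephritic arrays and rose 3.48-fold, with replicate 4 the highest of all arrays. Cyp2j13 and Cyp2d9 rose by 1.90 ± 0.28 and 1.14 ± 0.18, while Cyp2d26 fell by 1.49 and the sterol demethylase Cyp51 fell by 1.47. Without replicate 4 the falls numbered 7. Fabp1, the liver-type fatty acid binding protein, was 5.83, 5.06, 5.23, 5.76 and 5.42 on the prenephritic arrays and 8.59, 6.92, 9.18, 7.81 and 8.58 on the nephritic arrays and rose 6.76-fold. Cyp2d and Cyp4a genes have close relatives, so single members are uncertain.

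Stress genes moved in part. Of 20 glutathione and Nrf2 target genes 8 rose and 1 fell, including Hmox1, which degrades heme (0.79 ± 0.23, adjusted p = 0.0225), the quinone reductase Nqo1 (0.74 ± 0.18, adjusted p = 0.00949), the sulfiredoxin Srxn1 (0.72 ± 0.11, adjusted p = 0.000806) and the transferase Gstt1 (0.63 ± 0.06, adjusted p = 0.000139). In the 57-array fit Hmox1 and Nqo1 had adjusted p = 0.0785 and 0.136, without the arrays low in fat genes 0.146 and 0.0919, and the Hmox1 call was lost in 1 of the 10 fits (highest adjusted p = 0.0512 without prenephritic replicate 4). The list median was 0.05. Of 19 endoplasmic reticulum and integrated stress response genes 7 rose: the stress-induced factor Atf3 was 5.98, 5.73, 5.76, 5.89 and 5.91 on the prenephritic arrays and 7.70, 7.27, 7.82, 6.85 and 8.69 on the nephritic arrays and rose 3.51-fold, the asparagine synthetase Asns rose by 1.23 ± 0.16 (adjusted p = 0.000334) and Xbp1 by 0.76 ± 0.11 (adjusted p = 0.000639). Ddit3, the death-linked factor CHOP, stood at 0.30 ± 0.10 and did not pass. In the renin-angiotensin list of 11, Agt, the precursor of angiotensin, rose 2.51-fold (1.33 ± 0.24, adjusted p = 0.00192) and Ace, the converting enzyme, fell by 0.75.

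Genes of the distal nephron differed by segment. Pvalb, the calcium-binding parvalbumin of the early distal convoluted tubule, was 11.44, 11.52, 11.62, 11.57 and 11.65 on the prenephritic arrays and 7.52, 9.27, 7.50, 10.55 and 6.96 on the nephritic arrays. It fell 9.18-fold (-3.20 ± 0.55, adjusted p = 0.00151), with a wide nephritic spread and no overlap. Calb1, the calbindin that carries calcium through distal cells, was 13.04, 13.14, 13.17, 13.19 and 13.12 on the prenephritic arrays and 10.99, 11.75, 10.75, 11.61 and 11.32 on the nephritic arrays and fell 3.61-fold (-1.85 ± 0.16, adjusted p = 6.72e-05). The sodium-calcium exchanger Slc8a1, the calcium binder S100g and the magnesium channel Trpm6 changed by -1.13 ± 0.17, -1.06 ± 0.11 and -0.95 ± 0.16, and 7 of 10 list members fell. Slc12a3, the thiazide-sensitive cotransporter that defines this segment, stood at -0.39 ± 0.15 (adjusted p = 0.0775) and passed only without replicate 4 (adjusted p = 0.0342).

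In the thick ascending limb, Umod, the most abundant urinary protein uromodulin, was 13.80, 13.84, 13.90, 13.75 and 13.91 on the prenephritic arrays and 14.01, 14.14, 14.08, 13.91 and 13.91 on the nephritic arrays, a change of 0.17 ± 0.07 (adjusted p = 0.0929), which did not pass. Slc12a1, the loop diuretic target, stood at -0.07 ± 0.08 and did not pass, and Egf, the growth factor made in this segment, stood at -0.64 ± 0.23 (adjusted p = 0.0592, or 0.013 without replicate 4). Of 11 members 4 fell and 1 rose, Cldn16 (0.80 ± 0.14, adjusted p = 0.0013), the claudin for magnesium reabsorption. Collecting duct principal cells had 4 rises and 1 fall in 11: Hsd11b2, which shields the mineralocorticoid receptor from cortisol-type steroids, rose by 0.53 ± 0.11 (adjusted p = 0.00343) and the sodium channel subunit Scnn1b by 0.49 ± 0.13. Aqp4, a water channel of the basal membrane, fell 3.12-fold, from 10.96 ± 0.17 (SD, n = 5) to 9.32 ± 0.67. Intercalated cells had 4 rises and 2 falls in 10, among them Car15 (1.22 ± 0.20), Kit (0.60 ± 0.07), Foxi1, the factor that specifies these cells (0.40 ± 0.10), and the anion exchanger Slc4a1 (-0.62 ± 0.13). Over all genes 11.4% rose and 13.8% fell. The shares of falls in principal cells (9.09%) and intercalated cells (20%) and of rises in the thick ascending limb (9.09%) were near these.

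Podocyte genes fell in 8 of 16 members, with 1 rise and a median of -0.31. Nphs1, which encodes nephrin of the slit diaphragm, was 7.10, 7.43, 7.34, 7.17 and 7.34 on the prenephritic arrays and 6.44, 6.72, 6.69, 6.91 and 6.39 on the nephritic arrays and fell 1.56-fold (-0.65 ± 0.11, adjusted p = 0.00116), without overlap. Wt1, a transcription factor of podocyte identity, fell by 0.55, the surface sialomucin Podxl fell by 0.52 and the transcription factor Tcf21 fell by 0.89, the last a call lost in 3 of the 10 fits (highest adjusted p = 0.0748 without nephritic replicate 3). Synpo and Actn4, which serve the podocyte cytoskeleton, stood at -0.21 ± 0.11 and 0.16 ± 0.07 and did not pass. The member that rose was Cd2ap, an adaptor of the slit diaphragm that tubule cells also express, at 1.04 ± 0.16 (adjusted p = 0.000903). Endothelial genes fell in 10 of 16 members with none risen (median -0.48): Emcn, a sialomucin of capillaries, changed by -0.95 ± 0.28 (adjusted p = 0.024), the angiopoietin receptor Tek by -0.78 ± 0.23 (adjusted p = 0.0256), Tie1 by -0.64 ± 0.13 (adjusted p = 0.00461) and Robo4 by -0.67 ± 0.14 (adjusted p = 0.00499). Pecam1, the general endothelial adhesion molecule, stood at -0.39 ± 0.20 and did not pass. On replicate 4 Emcn and Tek were 10.11 and 9.54, inside their prenephritic ranges. Their calls were lost in 4 of the 10 fits (highest adjusted p = 0.059 without prenephritic replicate 1) and 5 of the 10 fits (highest adjusted p = 0.0672 without nephritic replicate 3). The endothelial count of falls was 5 without prenephritic replicate 1, prenephritic replicate 2 or nephritic replicate 3.

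The few blood markers measured gave no shared shift. Of 3 erythroid genes 1 fell (Slc4a1, also an intercalated cell gene). The hemoglobin genes Hba-a1, Hbb-b1 and Hbb-b2 of that list were not found among the measured genes, so the list says little about blood content. Of 7 platelet genes 1 rose (14.3%, near the 11.4% of all genes). It was Pf4 (1.50 ± 0.21, adjusted p = 0.000513), the platelet chemokine that macrophages also make. Of 4 sex-linked genes none passed, with changes from -0.05 to 0.60, and 1 rose without nephritic replicate 4. The arrays that carried more adrenal or less fat RNA were then left out, a choice made after seeing these values. Without prenephritic replicate 2 and nephritic replicate 5, 1360 genes rose and 1530 fell, and the medians of the injury, class II, phagocyte and proximal tubule lists were 1.55, 2.21, 1.54 and -0.70. Without prenephritic replicate 3 and nephritic replicates 2 and 3, which leaves 4 against 3 arrays with replicate 4 among the 3, 624 rose and 668 fell. The same medians were then 1.44, 1.70, 1.11 and -0.65, and their counts were 18 of 25 risen, 8 of 12 risen, 21 of 27 risen and 11 of 36 fallen. Endothelial falls then numbered 2, against 4 without the arrays rich in adrenal RNA, and cell cycle rises 13. The interferon response list then had 7 rises and oxidative phosphorylation 5 falls, with medians of 0.71 and -0.36. Of 172 named genes that passed, 50 lost their call in this setting and 122 kept it. Among those lost were Slc34a1 (limma adjusted p = 0.0581), Gatm (0.0738), Bhmt (0.0654), Slc6a19 (0.0824), Ubd (0.0683) and Ccl5 (0.0689).

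The changes were set beside those of the other lupus strains, each computed within its own table, since the tables may have been normalized separately. For NZB/W, the 10 kidneys at 36 weeks labelled nephritic were compared with 8 at 16 weeks labelled prenephritic; for the 36-week kidneys one label field says prenephritic, and the field that reports nephritis with proteinuria was followed. For NZW/BXSB, 6 nephritic kidneys were compared with 6 prenephritic ones. Over all genes, 11% rose and 15.3% fell in NZB/W, and 11.4% rose and 8.73% fell in NZW/BXSB. Of the NZM2410 rises, 1017 also rose in NZB/W, which is 54.0% of the NZM2410 rises and 56.1% of those of NZB/W. Of the falls, 1454 were shared, 63.9% and 57.6%. With NZW/BXSB, 996 rises were shared (52.9% and 53.0%) and 702 falls (30.8% and 48.8%). In all 3 strains 700 genes rose and 543 fell. Opposite calls numbered 14 genes with NZB/W and 42 with NZW/BXSB.

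The difference between the NZM2410 change and that of another strain was tested gene by gene with summed variances. Against NZB/W, the NZM2410 change was higher for 156 genes (0.947%) and lower for 127 (0.771%). Against NZW/BXSB it was higher for 320 genes (1.94%) and lower for 591 (3.59%). These counts depended strongly on replicate 4: without it they were 717 and 453 against NZB/W and 749 and 1137 against NZW/BXSB. They also fell when single arrays were left out, to 68 higher and 70 lower against NZB/W without nephritic replicate 3, and to 163 higher without nephritic replicate 3 and 344 lower without prenephritic replicate 1 against NZW/BXSB.

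Havcr1 rose more in NZM2410 than in both other strains, as did Krt20 and Vcam1 of the injury list. It changed by 5.58 ± 0.25 in NZM2410, 1.15 ± 0.27 in NZB/W and 1.39 ± 0.27 in NZW/BXSB. The differences of 4.43 ± 0.37 and 4.19 ± 0.37 passed with adjusted p = 1.55e-10 and 3.6e-07. Krt20 behaved likewise, with differences of 2.77 ± 0.50 and 2.62 ± 0.48, as did Vcam1 with 1.93 ± 0.42 and 1.59 ± 0.43. Outside the injury list, Pcdh8 differed by 2.37 ± 0.32 and 2.04 ± 0.32 and Aoc1 by 2.14 ± 0.37 and 1.38 ± 0.40. The Vcam1 calls were lost in 2 of the 10 fits (highest adjusted p = 0.0566 without nephritic replicate 3) against NZB/W and 8 of the 10 fits (highest adjusted p = 0.0816 without nephritic replicate 3) against NZW/BXSB, and the Aoc1 call in 8 of the 10 fits (highest adjusted p = 0.0799 without nephritic replicate 3) against NZW/BXSB. Lcn2 rose by 4.04 in NZB/W and 4.40 in NZW/BXSB, and its differences of 1.12 ± 0.68 and 0.75 ± 0.68 did not pass. Of 25 injury genes, 7 were higher in NZM2410 than in NZB/W and 8 higher than in NZW/BXSB. The shares of all genes were 0.947% and 1.94%. Cyp4b1, which stood at -0.16 in NZB/W and -0.18 in NZW/BXSB, was also higher than in both (1.96 ± 0.28 and 1.98 ± 0.23), and so was Fabp1 (2.05 ± 0.56, adjusted p = 0.043, and 3.48 ± 0.49, adjusted p = 0.000255). The Fabp1 call against NZB/W was lost in 8 of the 10 fits (highest adjusted p = 0.0926 without nephritic replicate 3).

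The IgG heavy chain genes Ighg3, Ighg2b and Ighg1 and the IgM heavy chain gene Ighm had lower changes in NZM2410 than in NZB/W. Ighg3 had a change of -0.08 ± 0.12 in NZM2410 and of 3.25 ± 0.47 in NZB/W, a difference of -3.34 ± 0.48 (adjusted p = 8.85e-05). Ighg2b differed by -3.16 ± 0.46, Ighg1 by -2.30 ± 0.51, Ighm by -2.64 ± 0.46 and the kappa variable gene Igkv6-15 by -3.20 ± 0.55. Of 15 plasma cell and immunoglobulin genes, 13 rose in NZB/W, against 11% of all genes, with a median of 2.42. The NZM2410 change was lower for 7 of the 15, against 0.771% of all genes. Igha, Jchain and Igkc rose by 3.30, 3.71 and 3.96 in NZB/W, and their differences of 0.30 ± 0.65, 0.10 ± 0.70 and 0.87 ± 0.74 did not pass. Against NZW/BXSB, by contrast, Igkc was higher in NZM2410 by 3.69 ± 0.77 (adjusted p = 0.00786) and Jchain by 2.62 ± 0.78 (adjusted p = 0.0488), the latter call lost in 8 of the 10 fits (highest adjusted p = 0.104 without nephritic replicate 3). B cell genes rose in 11 of 14 members in NZB/W. The NZM2410 change was lower for 4 of the 14 (0.771% of all genes), among them Cd79b (-1.36 ± 0.30). T cell genes rose in 14 of 21 in NZB/W and 4 of 21 in NZM2410, yet the difference passed for none of them. Ifi202b, an interferon-inducible gene of a lupus locus, chosen here after its values were seen, stood at 0.06 ± 0.07 in NZM2410 and was at the low end of the scale on all 10 arrays (3.35 to 3.53 and 3.37 to 3.62), against a rise of 2.14 in NZB/W (difference -2.08 ± 0.33, adjusted p = 0.000317).

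Fibrillar collagens and further matrix genes changed less in NZM2410 than in NZW/BXSB. Col3a1 had a change of 0.17 ± 0.31 in NZM2410 and 2.73 ± 0.24 in NZW/BXSB, a difference of -2.56 ± 0.39 (adjusted p = 0.000812), and Col1a1 differed by -2.05 ± 0.44 (adjusted p = 0.00847). In NZW/BXSB 29 of 37 matrix genes rose (11.4% of all genes) with a median of 0.96. In NZB/W 28 rose (11%) with a median of 0.68. The NZM2410 change was lower than that of NZW/BXSB for 16 of the 37 (3.59% of all genes). It was lower than that of NZB/W for 1 (0.771%). Class II genes ran the other way, higher in NZM2410 than in NZW/BXSB for 6 of 12, including H2-Ab1 (1.57 ± 0.35) and Cd74 (1.49 ± 0.32), and lower for 1, the lysosomal thiol reductase Ifi30 (-0.52 ± 0.10). Class I genes were higher for 3 of 12. Over all genes the NZM2410 change was higher than in NZW/BXSB for 1.94%.

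Serpina6 and a minority of proximal tubule genes had lower changes in NZM2410 than in NZW/BXSB. Serpina6 had a change of -1.98 ± 0.32 in NZB/W and 0.04 ± 0.08 in NZW/BXSB, so that the NZM2410 change was lower than both, with differences of -3.04 ± 0.53 and -5.07 ± 0.43. Of 36 proximal tubule genes, none was lower than in NZB/W and 13 were lower than in NZW/BXSB. The shares of all genes were 0.771% and 3.59%. Among the 13 were Slc34a1 (-1.13 ± 0.26) and Slc5a2 (-1.20 ± 0.32). The Slc34a1 call was lost in 2 of the 10 fits (highest adjusted p = 0.0555 without nephritic replicate 3). That of Slc5a2 was lost in 7 of the 10 fits (highest adjusted p = 0.0778 without nephritic replicate 3). Fatty acid oxidation and peroxisome genes ran the other way: 26 of 34 fell in NZW/BXSB, against 8.73% of all genes, with a median of -0.52. In NZM2410 15 fell (13.8% of all genes) with a median of -0.30. The NZM2410 change was higher for 6 (1.94% of all genes) and lower for none (3.59%). Gatm of the creatine list was also lower than in NZW/BXSB (-2.04 ± 0.52). Prlr, the prolactin receptor, fell by 1.91 in NZM2410 and changed by 1.25 ± 0.36 in NZW/BXSB, a difference of -3.17 ± 0.51. Cyp4a12a, Cyp2d9 and Cyp2d12 were higher in NZM2410 than in NZW/BXSB by 3.0 ± 0.47, 2.77 ± 0.28 and 2.87 ± 0.45, with NZW/BXSB changes of -0.53, -1.63 and -3.12. Of 16 endothelial genes, 4 were lower than in NZB/W (0.771% of all genes), among them Robo4 (-0.66 ± 0.16) and Tie1 (-0.69 ± 0.18). The Robo4 call was lost in 7 of the 10 fits (highest adjusted p = 0.0939 without prenephritic replicate 1). That of Tie1 was lost in 8 of the 10 fits (highest adjusted p = 0.102 without nephritic replicate 3). In all, the NZM2410 change was higher than in both other strains for 59 genes and lower than in both for 43.

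**Figure D5:**
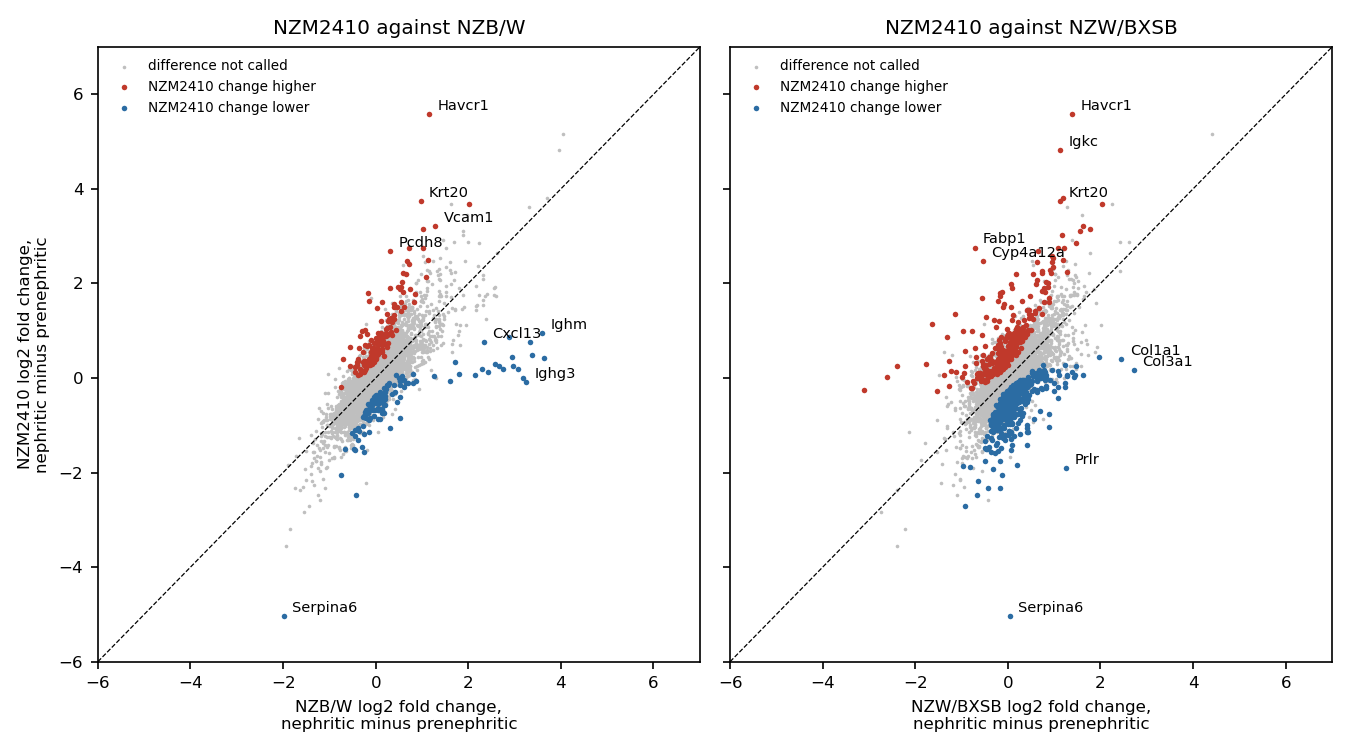
Each point is a gene; the vertical axis is its NZM2410 log2 fold change and the horizontal axis its log2 fold change in NZB/W (left) or NZW/BXSB (right), with a dashed line where both are equal. Coloured points differ between the strains at an adjusted p under 0.05: Havcr1 and Krt20 lie above the line in both panels, immunoglobulin genes below it against NZB/W and collagens below it against NZW/BXSB.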

How the data were processed

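Kidney RNA was measured on Affymetrix arrays, and the strain tables hold log2 expression values that the authors made by robust multi-array averaging (RMA), per the submitters' processing notes; these sources name no RMA version, array type, probe set definition or genome build. The NZM2410 table held 16475 genes and 64 control probe sets on 10 arrays, identical to the deposited series matrix values. Of the gene IDs, 16229 were renamed or kept through RefSeq and 246 kept the table's name. Values were used as deposited, with no filter on dim genes.

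Nephritic minus prenephritic changes were fitted with limma 3.58.1 in R 4.3.3 (lmFit and eBayes, Benjamini-Hochberg over all genes, threshold 0.05), without a block, over the 10 NZM2410 arrays. The difference between strains was the difference of within-table changes, with summed variances and Satterthwaite degrees of freedom. The group fit and the difference between strains were tested on simulated data with independent noise for each gene. Other procedures were not tested in this way. Tables and figures were made in Python 3.11.15. The number of arrays limits the precision.

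Described were 46 gene lists (26 pathway, 19 cell type, 1 sex-linked check; 784 symbols, 728 measured). The text names the 12 genes that rose most and the 12 that fell most, the 6 smallest adjusted p each way, up to 4 called members of each list, 6 fixed genes (Lcn2, Havcr1, C3, Nphs1, Slc34a1, Umod), the 5 largest SDs in each group and the 6 largest strain differences each way, with sex-linked genes left out; further list members were named after their values were seen, and some genes are not reported here. Genes and lists were chosen with earlier results of these data known. Alternatives were quantile normalization, median centring, a filter on expressed genes, array weights, trended and robust variance, a replicate block, a Gapdh covariate, a fit of all 57 arrays, a 2-fold threshold, the series matrix, other strain settings and leaving out arrays.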

Additional observations from a re-analysis of the deposited data

Results flagged for a closer look

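Within each group of 5 arrays, 41 of 384 gene groups (10.7%) and 8 of 90 list groups held an array far from the other 4. For independent groups not chosen by spread, chance gives about 1 in 20. The named genes include the 5 largest SDs of each group, and all genes share the same arrays. The counts therefore describe the arrays and test nothing. Nephritic replicate 4 was such an array for 11 genes. Its levels were 6.86 for Nepn, 6.14 for Slc22a27, 9.22 for Slc22a22, 11.37 for the complex I subunit Ndufs7 and 7.92 for the peroxisomal oxidase Acox3, all above the other nephritic arrays and toward the prenephritic ones. It was far below the other nephritic arrays for Asns (7.19), Cyp2j13 (5.05), Blnk (9.39), Sdc1 (7.78) and Kit (6.96), which rose, and it stood apart for Car15 at 11.42. It had the smallest shift of the nephritic arrays in 24 of 42 lists with a called gene, and it lay far from the others in tubular injury (0.81), the citrate cycle (-0.21) and creatine, tyrosine and betaine metabolism (-0.23).

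Prenephritic replicate 2 was far from its group for 10 genes. It was high in the adrenal genes Hsd3b1 (11.87), Star (10.83), Cyp11a1 (10.39), Akr1b7 (9.80) and Chgb (9.61), for an adrenal list median of 3.43. It was also high in C1qa (8.47), Psmb8 (8.45) and Tyrobp (8.10), and its level of Cxcl2 was 3.88. Nephritic replicate 5 was high in the same adrenal genes Hsd3b1 (10.42), Cyp11a1 (8.81), Star (8.58) and Chgb (9.0), for a list median of 2.14, and it was apart for the podocyte phosphatase Ptpro at 6.43.

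Prenephritic replicate 3 was low in the fat genes Cfd (6.71), Adipoq (4.90) and Ucp1 (4.94) and apart for Pcx at 10.42. Prenephritic replicate 5 was apart for Serpina6 (11.51), Slc22a29 (10.25), Idh3b (12.15), Cd2ap (8.43) and Ighg3 (6.51), and for the medians of the renin-angiotensin list (-0.13) and the T cell list (0.21). Prenephritic replicate 4 was apart for Pkm (11.84), Tie1 (7.32) and the chloride channel partner Bsnd (8.69), and prenephritic replicate 1 for Cd3d (5.13) and Car15 (10.94). Nephritic replicate 1 was apart for Robo4 (6.14), and nephritic replicate 2 for the alternative complement list (0.67).

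The change in NZM2410 differed from that in NZB/W, by the test of the difference, for Havcr1 (4.43), Krt20 (2.77), Pcdh8 (2.37), Aoc1 (2.14), Fabp1 (2.05) and Cyp4b1 (1.96), which were higher in NZM2410. It was lower for Ighg3 (-3.34), Igkv6-15 (-3.20), Ighg2b (-3.16), Serpina6 (-3.04) and a pair of further kappa variable genes (-2.88 for each). It differed from that in NZW/BXSB for Havcr1 (4.19), Igkc (3.69), Fabp1 (3.48), Cyp4a12a (3.0), Cyp2d12 (2.87) and Cyp2d9 (2.77), all higher. It was lower for Serpina6 (-5.07), Prlr (-3.17), Col3a1 (-2.56), Slc22a27 (-2.17), Col1a1 (-2.05) and Gatm (-2.04).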

How the results depend on the processing

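Of 172 named genes that passed, 120 passed in the same direction under every alternative, and none changed direction. Counts over all genes stayed within 1.5 times of 4161 under quantile normalization, median centring, the expressed-gene filter, trended and robust variance, the 57-array fit, the Gapdh covariate (3216) and the series matrix. With a replicate block, 1667 rose and 1944 fell (3611 in all), and residuals of same-numbered arrays correlated at 0.0710, -0.0854, 0.211, 0.0189 and -0.0522, so the numbers were not taken as pairs. Array weights, which weighted prenephritic replicate 5 and nephritic replicate 4 least (0.302 and 0.321), gave 6449 genes, 3040 risen. At 2-fold or more there were 485 (316 risen, 169 fallen). Leaving out 1 array gave 3231 to 5017 genes, 1454 to 2391 risen and 1777 to 2626 fallen. Without the arrays low in adipocyte genes, a setting chosen after seeing the data that leaves fewer arrays, there were 1292 (624 and 668). Of the 172 named genes, 50 lost their call there.

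Strain differences were less stable. Against NZB/W the 283 genes (156 higher, 127 lower) became 154 (50 lower) among genes above the median level. They became 431 (247 higher) when the 23-week non-proteinuric kidneys replaced the 16-week ones as the NZB/W reference. They became 131 (62 and 69) without the arrays high in adrenal genes and 71 (28 and 43) without those low in adipocyte genes. Leaving out 1 array gave 138 to 1170, 68 to 717 higher and 70 to 453 lower. Against NZW/BXSB the 911 genes became 420 (150 and 270) and 115 (38 and 77) without the same arrays. Leaving out 1 array gave 507 to 1886, 163 to 749 higher and 344 to 1137 lower. The cause of these shifts was not tested.

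Examples of list counts that moved were those of endothelium (10 falls, 4 without the adrenal-rich arrays and 2 without the fat-poor ones), the cell cycle (21 rises, 11 in the 57-array fit and 13 without the fat-poor arrays) and T cells (4 rises, 13 with array weights and 1 without the fat-poor arrays). Signal over background limits dim genes: 13539 genes (82.2%) are marked expressed in the authors' table, and unmarked genes may be compressed.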

Other observations

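Genes outside the lists, chosen after their values were seen, also moved. Kl, the klotho coreceptor for the phosphate hormone FGF23, was 12.08, 12.15, 12.16, 12.11 and 12.40 on the prenephritic arrays and 9.93, 10.74, 10.11, 11.14 and 10.20 on the nephritic arrays and fell by 1.76 ± 0.20 (adjusted p = 0.000189 by limma). Il34, a second ligand of the macrophage receptor Csf1r, rose by 1.88 ± 0.20, from levels of 5.85 to 6.15 on prenephritic arrays to levels of 7.01 to 8.27 on nephritic arrays. Slc34a2, a phosphate cotransporter better known from lung and gut, rose by 2.14 ± 0.28, opposite to Slc34a1 (-1.24 ± 0.25) and Slc34a3 (-2.71 ± 0.40). Stab2, a scavenger receptor of sinusoidal endothelium, fell by 2.05 ± 0.22. Dio1, which activates thyroid hormone, fell by 2.03 ± 0.36, and Nox4, a renal NADPH oxidase, fell by 1.38 ± 0.23. Ankrd1, a stretch-responsive nuclear protein, rose by 2.75 ± 0.29, and Grem1, an antagonist of bone morphogenetic proteins, rose by 2.20 ± 0.52. Mt2, a metal-binding metallothionein, rose by 2.18 ± 0.25. Lpl, the lipoprotein lipase of fat and muscle, fell by 1.60 ± 0.19; its prenephritic levels were 11.36, 11.44, 11.31, 11.57 and 11.56 and its nephritic levels 9.93, 9.66, 9.32, 10.62 and 9.69. The part of fat content in this fall was not tested.

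Dbp, a transcription factor of the circadian clock, fell by 1.97 ± 0.37, with prenephritic levels of 9.86 to 10.26 and nephritic levels of 8.06, 8.61, 9.45, 7.17 and 7.07, lowest on replicates 4 and 5. The hour at which kidneys were taken is not given in the labels. Egr1 and Junb, immediate early genes, stood at changes of 1.69 ± 0.26 and 1.50 ± 0.16 in NZM2410 and -0.56 ± 0.57 and -0.11 ± 0.29 in NZW/BXSB, with differences of 2.25 ± 0.62 (adjusted p = 0.0418) and 1.61 ± 0.33 (adjusted p = 0.00871) by limma fits in each table.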
